A study of Mus musculus with 14 samples.

Results

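The cyclins and cyclin-dependent kinases that carry a cell through G1 and into S phase were followed in bone marrow stromal clones with and without a conditional deletion of Trp53, the gene for the tumour suppressor p53. The set holds 10 genes chosen by name from textbook knowledge of this stage of the cycle: the D cyclins Ccnd1, Ccnd2 and Ccnd3, their kinases Cdk4 and Cdk6, the E cyclins Ccne1 and Ccne2, the A cyclin Ccna2, the kinase Cdk2 and the phosphatase Cdc25a. Earlier results of these data were known when the set was chosen, so setting it beside all genes only describes it. All 10 passed the filter on low counts and were among the 17358 genes tested, of 30503 in the count table. Bulk RNA-seq libraries came from 14 cultured single clones of tdTomato+ femur bone marrow cells in 3 groups. The 5 Fgfr3-WT (P23) clones carried Fgfr3-creER and one R26R(tdTomato) reporter allele. The 5 Fgfr3-p53 cKO (P28) and 4 Fgfr3-p53 cKO (P4M) clones carried in addition 2 floxed Trp53 alleles, written Trp53fl/fl. Mice of all groups received tamoxifen at postnatal day 21, which switches on the Cre recombinase in Fgfr3-expressing cells, and were sampled at day 23, day 28 or month 4. By the sample labels, WT and P28 cKO clones were at passage 8 and P4M cKO clones at passages 6 to 8. The age of the mouse, and in P4M the passage, therefore cannot be told apart from the group. The paper's methods give the same passage range for all cKO clones, so equal passage with WT is not settled for the younger cKO group. The paper also reports that WT clones grew more slowly, took longer to reach a given passage and reached late passages less often. Time in culture and survival of clones may thus also go with the group, and their part in the results below was not tested.

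In G1, D cyclins bind Cdk4 or Cdk6, and the resulting kinases phosphorylate the retinoblastoma protein, which then releases E2F transcription factors. E2F factors switch on the E cyclins, Cdc25a and the genes of DNA replication, and cyclin E with Cdk2 drives the entry into S phase. Cyclin A2 replaces cyclin E as the partner of Cdk2 in S phase, and Cdc25a removes the inhibitory phosphate from Cdk2. p53 slows this chain through its target Cdkn1a, which encodes the CDK inhibitor p21. Bone marrow stromal cells that are grown as clones in culture must pass this gate at each division.

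The promoter windows of the 6 members found in the RefSeq table (GRCm38.p6), 250 bases before to 50 bases after the gene start, were searched on both strands for the E2F letters TTTCCCGC and TTTGGCGC. The table holds windows for Ccnd3, Ccne1, Cdk2, Cdk4, Cdk6 and Cdc25a. Ccnd1, Ccnd2, Ccne2 and Ccna2 were not searched. The windows of Cdc25a and Cdk2 are shown because they were the only 2 of these 6 genes with a match, and the capitals mark the matched letters.
Cdc25a, chr9:109875329-109875628, plus strand: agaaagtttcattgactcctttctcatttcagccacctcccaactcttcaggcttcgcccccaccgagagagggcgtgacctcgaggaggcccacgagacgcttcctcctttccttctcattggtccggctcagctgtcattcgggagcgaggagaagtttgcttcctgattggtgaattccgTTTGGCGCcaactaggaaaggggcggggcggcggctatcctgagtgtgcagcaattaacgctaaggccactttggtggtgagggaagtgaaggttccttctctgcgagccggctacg
Cdk2, chr10:128705002-128705301, minus strand: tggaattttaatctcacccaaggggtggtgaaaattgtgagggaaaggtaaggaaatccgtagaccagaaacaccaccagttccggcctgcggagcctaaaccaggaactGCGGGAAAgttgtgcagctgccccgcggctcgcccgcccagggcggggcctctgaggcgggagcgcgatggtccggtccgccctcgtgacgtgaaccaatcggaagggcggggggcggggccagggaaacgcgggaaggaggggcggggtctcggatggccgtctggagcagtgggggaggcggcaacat
In Cdc25a the letters TTTGGCGC began 67 bases before the gene start. In Cdk2 the match was TTTCCCGC on the other strand, printed as GCGGGAAA, and began 140 bases before the start. Of all 32851 promoter windows, 1.07% held TTTCCCGC and 0.514% held TTTGGCGC. The cell cycle homology letters TTTGAA and TTCGAA, present in 17.9% and 1.56% of all windows, were in none of the members' windows. These matches describe letters, not bound sites.

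The deletion was first checked in its own target. Trp53 was at 49.9 to 68.2 CPM (counts scaled to the library total, with TMM factors) in the 5 WT clones and at 1.72 to 2.84 CPM in the 9 cKO clones, so the groups did not overlap (log2 fold change of −4.59 ± 0.12 (SE), all cKO against WT, adjusted p = 7.5e-11). Total counts per clone ran from 25688946 to 52857424 and were lower in WT (median 27447973) than in P28 (median 45728793). Mki67, a marker of cycling cells, was at 0.880, 2.41, 0.850, 33.4 and 5.74 CPM in WT replicates 1 to 5, so replicate 4 stood apart from the other WT clones, while the cKO clones lay between 49.1 and 172 CPM. All 10 skeletal stromal and osteoblast markers were above 1 TPM (a level per transcript length, scaled to the same total in each clone) in every cKO clone, against 5 of 10 in every WT clone, and their summed TPM was 115 to 1800 in WT, 7922 to 13800 in P28 and 4927 to 22048 in P4M. By gene the list was mixed in all cKO against WT: Col1a1 (6.47 ± 1.58, adjusted p = 0.00451), Sp7 and Runx2 were higher, Fgfr3 was lower (−2.35 ± 0.61, adjusted p = 0.0067), and the other 6, Pdgfra and Pdgfrb among them, were not called. Of 8 haematopoietic markers, 6 including Ptprc were at or under 1 TPM in every clone, while the other 2 were above 1 TPM in every clone. The sum of the 8 was 22.8 to 165 TPM in WT, 5.28 to 34.3 in P28 and 6.71 to 11.8 in P4M. The sum of 4 endothelial markers stayed at or under 3.25 TPM in every clone. The part of these differences in the results below was not tested. All WT sample names begin with one number and all cKO names with another, so that any preparation difference behind that prefix and the genotype cannot be told apart.

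Of the 10 genes, 5 were higher and 1 lower at a false discovery rate of 0.05 in the P28 cKO clones, and the same 5 and 1 in the P4M cKO clones, each against WT. Ccne2, Ccna2, Cdk4, Cdk6 and Cdc25a were the higher ones and Ccnd2 the lower one, while Ccnd1, Ccnd3, Ccne1 and Cdk2 were not called. Over all genes tested, 19.2% were higher and 19.7% lower in P28 against WT, and 22.3% and 23.6% in P4M against WT. The 2 cKO comparisons share the WT clones, so they are not separate evidence. With both cKO groups set against WT, again 5 members were higher and 1 lower, beside 23.1% and 25.7% of all genes. The median log2 fold change of the 10 genes was 0.80 in P28, 0.46 in P4M and 0.60 in all cKO, against −0.02, −0.06 and −0.05 over all genes. Between the cKO groups none of the 10 passed edgeR's test or DESeq2's, and none had an unadjusted p under 0.05 in edgeR, while 3.34% of all genes were higher and 3.88% lower in P4M than in P28. In bulk samples a smaller share of cells in cycle and less of a transcript per cell cannot be told apart. The paper's figure legend counts these samples both as clones and as mice, and the labels do not tie clones to mice. These p-values therefore measure the spread between clones.

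**Figure D1:**
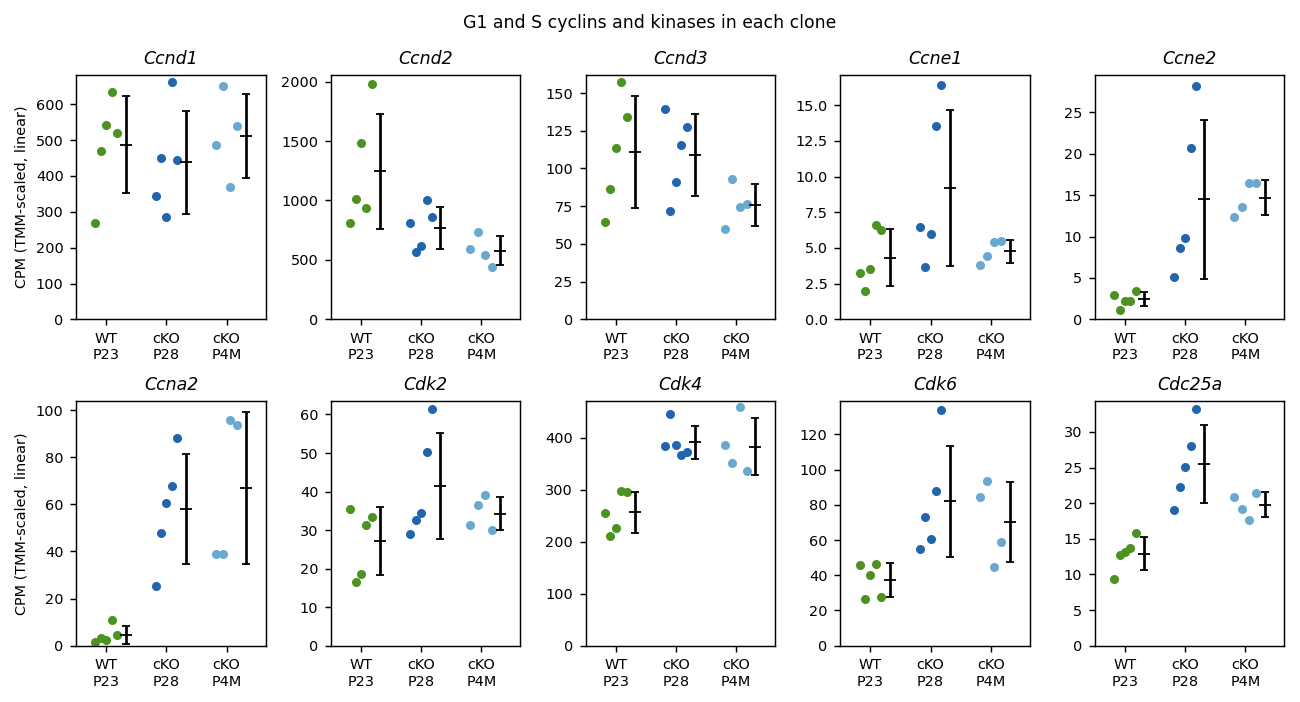
Level of each of the 10 genes in each clone, in TMM-scaled CPM on a linear axis from 0, with WT (P23) in green, cKO (P28) in dark blue and cKO (P4M) in light blue, and the mean ± SD of each group in black. Ccne2, Ccna2, Cdk4 and Cdc25a were higher in every cKO clone than in any WT clone, while the groups overlapped in Ccnd1, Ccnd3, Ccne1 and Cdk2.

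Every P28 clone lay above every WT clone for 5 of the 10 genes (Ccne2, Ccna2, Cdk4, Cdk6 and Cdc25a), beside 13.0% of all genes. Every P4M clone did so for 4 of them, beside 17.8% of all genes, with Cdk6 the exception. All 9 cKO clones lay above all 5 WT clones for the same 4 (Ccne2, Ccna2, Cdk4 and Cdc25a), beside 9.73% of all genes. No member had every P4M clone above every P28 clone, beside 9.07% of all genes. In the other direction 1 member, Ccnd2, had every P4M clone under every WT clone, beside 2729 of the 17358 genes tested. No member had every P28 clone, or every cKO clone, under every WT clone, beside 2000 and 1455 genes.

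The D cyclins couple growth signals to the cycle, and none of the 3 rose. Ccnd2 read 808, 1010, 1484, 937 and 1983 CPM in WT, 807, 570, 615, 1002 and 860 CPM in P28 and 591, 733, 545 and 443 CPM in P4M. The P4M clones all lay under the WT range, whereas P28 overlapped it. Ccnd2 was lower than WT by a log2 fold change of −0.69 ± 0.25 (SE) in P28 (adjusted p = 0.0451) and of −1.11 ± 0.28 in P4M (adjusted p = 0.00555). The P28 value lay close to the threshold. With 1 clone left out the log2 fold change ran from −0.84 to −0.46, and the call was lost in 9 of 14 fits that left out 1 clone (WT replicate 3 or 5, P28 replicate 1, 2, 3 or 5, or P4M replicate 1, 3 or 4, adjusted p from 0.0503 to 0.121) and with RLE scaling, no scaling, no filter or only WT and P28 clones in the fit (adjusted p from 0.0505 to 0.0806). The P4M call and the all cKO call (−0.90 ± 0.22, adjusted p = 0.0043) held in all 14.

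Ccnd1, the D cyclin best known as a target of growth factor signalling, ranged from 269 to 635 CPM in WT, from 286 to 663 CPM in P28 and from 368 to 651 CPM in P4M. The 3 ranges nearly coincided, and the log2 fold change in all cKO was −0.04 ± 0.23 (adjusted p = 0.895), positive (0.03) when counts were scaled to the total alone. Ccnd3, the third family member, ranged from 64.3 to 157 CPM in WT, 71.7 to 139 CPM in P28 and 59.6 to 93.2 CPM in P4M. Its log2 fold change was −0.29 ± 0.21 in all cKO (adjusted p = 0.280) and −0.55 ± 0.26 in P4M (adjusted p = 0.0982). The P4M value passed without WT replicate 1 (−0.70, adjusted p = 0.0236).

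Levels of different genes were compared per length, as TPM. The 3 D cyclins summed to 576 ± 167 TPM (SD, n = 5) in WT, 540 ± 128 (n = 5) in P28 and 417 ± 70.7 (n = 4) in P4M. On the TPM scale the median of all tested genes was itself 0.31 higher in P28 and 0.09 higher in P4M than in WT (log2), so a share or ratio within a clone is the safer reading. Ccnd2 made up 48.5 ± 8.6% of the D cyclin TPM in WT, 40.2 ± 3.1% in P28 and 33.6 ± 3.8% in P4M. Ccnd1 made up 32.9 ± 6.1%, 38.2 ± 7.5% and 50.1 ± 4.6%. The leading D cyclin by mean share was thus Ccnd2 in WT and Ccnd1 in P4M, with the pair level in P28.

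The ratio of Ccnd2 to Ccnd1 TPM was 1.75, 1.26, 1.57, 0.875 and 2.30 in the WT clones, 1.44, 0.750, 1.29, 0.873 and 1.14 in P28, and 0.694, 0.656, 0.853 and 0.520 in P4M. All P4M clones were under all WT clones, and P28 overlapped both. The mean log2 ratio was lower in the 9 cKO than in the 5 WT clones by a difference of −0.77 ± 0.28 (exact permutation test, two-sided, p = 0.0190), and the value adjusted over the 8 ratio tests, 0.0506, missed the threshold. It was lower in P4M than in P28 by −0.67 ± 0.23 (exact permutation p = 0.0317, adjusted 0.0635). For Ccnd3 to Ccnd1 the differences were −0.36 ± 0.25 in cKO against WT (exact permutation, adjusted p = 0.340) and −0.80 ± 0.31 in P4M against P28 (exact permutation, adjusted p = 0.102).

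**Figure D2:**
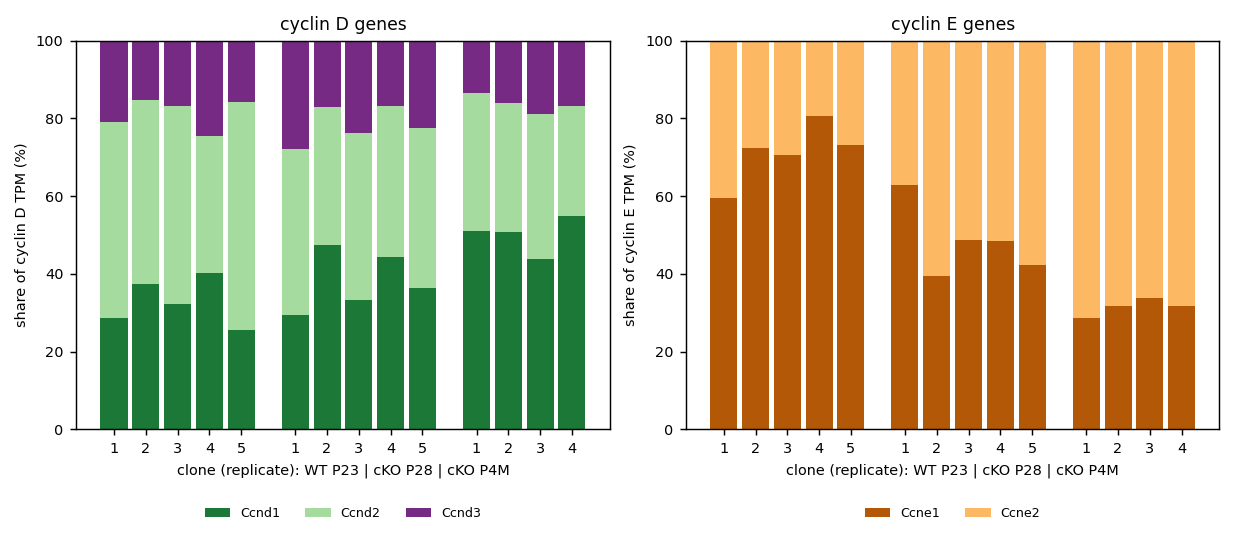
Share of the summed TPM taken by each D cyclin gene (left) and each E cyclin gene (right) in each clone, in percent, with the 5 WT, 5 cKO (P28) and 4 cKO (P4M) clones from left to right. Ccne1 took 59.6 to 80.7% of the E cyclin TPM in WT clones and 28.6 to 33.7% in P4M clones.

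The kinases that the D cyclins activate rose. Cdk4 read 255, 211, 226, 297 and 296 CPM in WT, 384, 445, 387, 366 and 373 CPM in P28 and 386, 352, 459 and 336 CPM in P4M. No cKO clone fell into the WT range, and the rise was small and even, with a log2 fold change of 0.61 ± 0.13 in P28 (adjusted p = 0.00339), 0.58 ± 0.14 in P4M (adjusted p = 0.00517) and 0.59 ± 0.12 in all cKO (1.51-fold, adjusted p = 0.00139). Cdk6 read 45.7, 26.6, 40.3, 46.3 and 27.5 CPM in WT, 54.8, 73.2, 60.4, 88.1 and 134 CPM in P28 and 84.6, 93.5, 44.6 and 58.9 CPM in P4M. P4M replicate 3 lay inside the WT range and P28 replicate 5 was the highest of all. Cdk6 rose by a log2 fold change of 1.14 ± 0.28 in P28 (adjusted p = 0.00627) and 0.92 ± 0.29 in P4M (adjusted p = 0.0207). The P4M call was lost without P4M replicate 1 (0.83, adjusted p = 0.0585) or replicate 2 (0.76, adjusted p = 0.0689), whereas the all cKO value, 1.03 ± 0.25 (adjusted p = 0.0048), held with each clone left out in turn.

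Per length, Cdk4 was by far the more abundant kinase of the pair in every clone, at 97.9 ± 0.6% of the Cdk4 and Cdk6 TPM in WT, 97.3 ± 1.2% in P28 and 97.5 ± 0.9% in P4M. The log2 ratio of Cdk6 to Cdk4 did not differ beyond the spread of clones between cKO and WT (0.28 ± 0.29, exact permutation, adjusted p = 0.427) or between P4M and P28 (−0.10 ± 0.42, exact permutation, adjusted p = 0.841).

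The E cyclins parted. Ccne2 read 2.96, 1.19, 2.27, 2.25 and 3.48 CPM in WT, 5.12, 8.56, 9.84, 20.7 and 28.2 CPM in P28 and 12.4, 13.5, 16.5 and 16.4 CPM in P4M. Every cKO clone was above every WT clone, with P28 spread over a wide range and P4M tight within it. Ccne2 rose by a log2 fold change of 2.57 ± 0.43 in P28 (adjusted p = 0.000658), 2.60 ± 0.45 in P4M (adjusted p = 0.000565) and 2.59 ± 0.41 in all cKO (6.00-fold, adjusted p = 0.000246). Counts behind Ccne2 were 31 to 91 in WT clones and 238 to 1101 in cKO clones.

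Ccne1 read 3.23, 1.99, 3.56, 6.57 and 6.29 CPM in WT, 6.45, 3.63, 6.00, 13.6 and 16.4 CPM in P28 and 3.81, 4.42, 5.41 and 5.47 CPM in P4M. P28 replicates 4 and 5 stood above all other clones, and the P4M clones lay inside the WT range. Its log2 fold change was 1.09 ± 0.42 in P28 (adjusted p = 0.0554) and 0.14 ± 0.44 in P4M (adjusted p = 0.815), and −0.95 ± 0.45 in P4M against P28 (adjusted p = 0.204). The P28 value passed in DESeq2 (1.11, adjusted p = 0.0261) and in edgeR without WT replicate 4 (1.29, adjusted p = 0.0416), WT replicate 5 (1.26, adjusted p = 0.0436) or P28 replicate 2 (1.29, adjusted p = 0.0239), with counts scaled to the total (adjusted p = 0.0364) and with at least 10 counts required in every clone (adjusted p = 0.0389).

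The make-up of the cyclin E message differed between groups. The ratio of Ccne2 to Ccne1 TPM was 0.690, 0.417, 0.438, 0.256 and 0.377 in WT, 0.595, 1.52, 1.05, 1.07 and 1.35 in P28, and 2.45, 2.13, 1.94 and 2.12 in P4M. P28 replicate 1 fell within the WT range, and every P4M clone was above every P28 clone. The log2 ratio was higher in cKO than in WT by 1.82 ± 0.32 (exact permutation test, two-sided, p = 0.0020, adjusted 0.0160, higher than the WT maximum in 8 of 9 cKO clones). It was higher in P4M than in P28 by 1.02 ± 0.24 (exact permutation p = 0.0159, the smallest this design allows, adjusted 0.0506), which missed the threshold after adjustment. Ccne1 thus held 71.3 ± 7.6% of the E cyclin TPM in WT, 48.4 ± 9.1% in P28 and 31.4 ± 2.1% in P4M. The summed E cyclin TPM was 4.60 ± 1.79 in WT, 18.8 ± 12.7 in P28 and 13.0 ± 1.9 in P4M.

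Cdk2, the kinase that E and A cyclins activate, was not called. It ranged from 16.5 to 35.4 CPM in WT, from 28.9 to 61.3 CPM in P28 and from 30.0 to 39.2 CPM in P4M, so the groups overlapped. The log2 fold change was 0.61 ± 0.25 in P28 (adjusted p = 0.0702), 0.34 ± 0.27 in P4M (adjusted p = 0.316) and 0.48 ± 0.23 in all cKO (adjusted p = 0.0989). The P28 value passed without WT replicate 1 (0.71, adjusted p = 0.0475) or P28 replicate 1 (0.71, adjusted p = 0.0469), with counts scaled to the total (adjusted p = 0.0496) and with at least 10 counts in every clone (adjusted p = 0.04997).

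Cdc25a, the phosphatase that frees Cdk2 from inhibitory phosphorylation and whose promoter window is printed above, read 9.35, 12.7, 13.1, 13.7 and 15.8 CPM in WT. It read 19.0, 22.2, 25.04, 28.1 and 33.2 CPM in P28 and 20.8, 19.2, 17.6 and 21.5 CPM in P4M. The lowest cKO clone was above the highest WT clone. Cdc25a rose by a log2 fold change of 0.98 ± 0.17 in P28 (adjusted p = 0.000845) and 0.62 ± 0.18 in P4M (adjusted p = 0.0138), and these calls held with each clone left out in turn. The P4M level was nominally lower than that of P28, by a log2 fold change of −0.37 ± 0.18 (adjusted p = 0.223).

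Ccna2, the cyclin of S phase and G2, had the largest change of the 10 genes. It read 1.47, 3.25, 2.59, 11.0 and 4.35 CPM in WT, 25.4, 47.8, 60.6, 67.7 and 88.0 CPM in P28 and 38.9, 38.9, 95.8 and 93.6 CPM in P4M. All cKO clones lay above all WT clones, and the highest WT value belonged to replicate 4, the WT clone with the most Mki67. Ccna2 rose by a log2 fold change of 3.67 ± 0.55 in P28 (adjusted p = 0.000312), 3.88 ± 0.56 in P4M (adjusted p = 0.000199) and 3.77 ± 0.53 in all cKO (13.7-fold, adjusted p = 0.00011). Without WT replicate 4 the all cKO value was 4.41 (adjusted p = 3.8e-05). Mki67 and Top2a, a topoisomerase of dividing cells, moved by log2 fold changes of 3.63 ± 0.88 (adjusted p = 0.00424) and 4.00 ± 0.75 (adjusted p = 0.000818) in the same contrast.

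**Figure D3:**
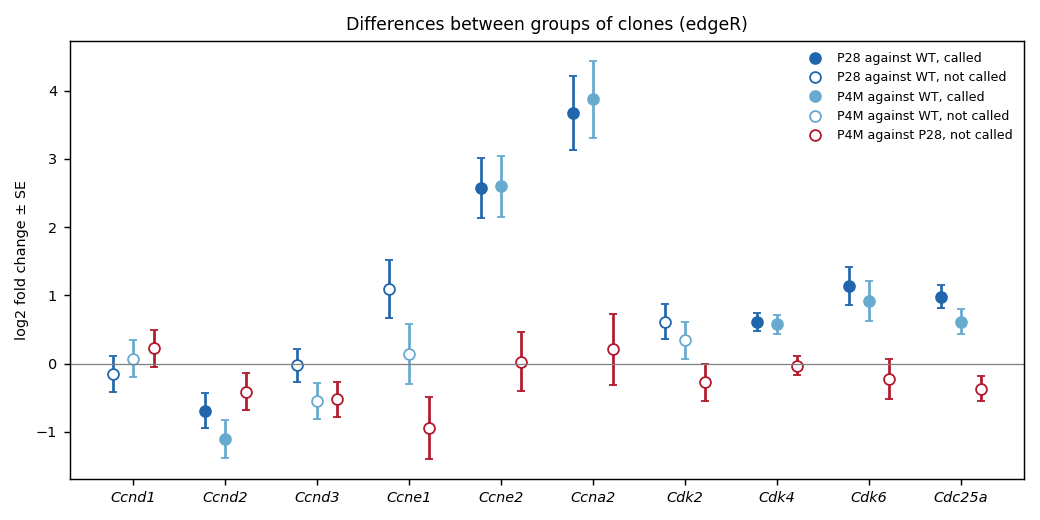
Log2 fold change ± SE of each gene in cKO (P28) against WT (dark blue), cKO (P4M) against WT (light blue) and P4M against P28 (red), from edgeR, with filled points past a false discovery rate of 0.05. The points run from −1.11 for Ccnd2 to 3.88 for Ccna2 in P4M against WT, and no red point is filled.

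The order of the levels also changed. In WT the mean TPM ran from Ccnd2 (285 ± 124) through Cdk4 (266 ± 46.7), Ccnd1 (186 ± 44.3) and Ccnd3 (105 ± 26.2) to Cdk2 (17.3 ± 5.7), Cdk6 (5.59 ± 1.71), Cdc25a (5.12 ± 1.02), Ccne1 (3.31 ± 1.46), Ccna2 (2.27 ± 1.76) and Ccne2 (1.29 ± 0.51). Neighbours from Ccnd2 to Ccnd3 overlapped in their clones' ranges, as did those from Cdk6 to Ccne2, and gaps without overlap lay between Ccnd3 and Cdk2 and between Cdk2 and Cdk6. In P28 Cdk4 led with 562 ± 57.8 TPM, and its lowest clone (507 TPM) was above the highest clone of any D cyclin (321 TPM, Ccnd1). Ccna2, at 36.7 ± 15.9 TPM in P28 and 36.7 ± 18.4 TPM in P4M, had moved from the ninth to the fifth place in both cKO groups and overlapped there with Cdk2 (33.3 ± 11.4 and 24.1 ± 3.0 TPM).

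The other genes of the G1 and S machinery were counted in 6 lists, to be read beside the 23.1% higher and 25.7% lower over all genes in all cKO against WT. Of 7 CDK inhibitors tested, none was higher and 2, Cdkn1a and Cdkn1b, were lower in all cKO against WT. Cdkn1a, the p53 target that encodes p21, was at 174 to 331 CPM in WT, 12.9 to 58.7 CPM in P28 and 96.3 to 265 CPM in P4M. P28 lay fully under WT (log2 fold change of −2.81 ± 0.40, adjusted p = 0.000223), P4M overlapped it (−0.54 ± 0.40, adjusted p = 0.281), and P4M was higher than P28 by 2.27 ± 0.40 (adjusted p = 0.00895). Cdkn1b, which encodes p27, was at 80.5 to 182 CPM in WT, 44.3 to 101 CPM in P28 and 28.8 to 44.5 CPM in P4M, lower than WT in P4M by a log2 fold change of −1.64 ± 0.31 (adjusted p = 0.00104). Cdkn2a, whose locus encodes p16 and p19ARF, was at 13.9 to 208 CPM in WT, 302 to 583 CPM in P28 and 72.4 to 178 CPM in P4M, and passed against WT in P28 (2.12 ± 0.57, adjusted p = 0.0101) and not in P4M (0.40 ± 0.58, adjusted p = 0.603). Its difference between P4M and P28 was −1.73 ± 0.61 (adjusted p = 0.0946), so the 2 responses were not shown to differ. Cdkn1c was called higher in P28 (5.13 ± 1.88, adjusted p = 0.0446) on clones that ran from 0 to 47.5 CPM.

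Of 13 retinoblastoma and E2F genes, 7 were higher and none lower in all cKO against WT, with a list median of 0.42. E2f3, an activating E2F, rose by 0.72 ± 0.16 (adjusted p = 0.00269), and Tfdp1, the partner that E2F proteins need to bind DNA, by 0.79 ± 0.18 (adjusted p = 0.00332). E2f7, a repressor that E2F activity itself induces, was at 0 to 2.99 CPM in WT and 7.77 to 25.7 CPM in cKO (4.34 ± 0.99, adjusted p = 0.0029). E2f2, at 0.195 to 1.68 CPM in WT and up to 8.12 CPM in cKO, rose by 1.74 ± 0.46 (adjusted p = 0.00712), with cKO clones that overlapped WT. Against WT it passed in P4M (2.45 ± 0.52, adjusted p = 0.00223) and not in P28 (1.03 ± 0.49, adjusted p = 0.112). The difference between P4M and P28 was 1.42 ± 0.51 (adjusted p = 0.0993). E2f1, the activator most tied to S phase entry, did not pass (−0.21 ± 0.19, adjusted p = 0.395), and Rb1 did not pass against WT (−0.03 ± 0.23, adjusted p = 0.928) but higher in P4M than in P28 (1.18 ± 0.28, adjusted p = 0.0254, 31.5 to 43.0 against 10.9 to 24.4 CPM).

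Of 16 genes that regulate the activity or turnover of cell cycle kinases, 10 were higher and none lower, with a list median of 0.60. The list mixes directions of action, since it also holds the inhibitory kinases Wee1 and Pkmyt1. Pkmyt1 was among the 10 (2.29 ± 0.36, adjusted p = 0.000254). Skp2, the ubiquitin ligase subunit that marks p27 for destruction, was at 4.25 to 7.04 CPM in WT and 11.4 to 30.3 CPM in cKO (1.69 ± 0.21, adjusted p = 4.5e-05). Cks1b, its cofactor, rose by 1.58 ± 0.23 (adjusted p = 0.000147), Cks2 by 2.59 ± 0.40 (adjusted p = 0.000221) and Cdc25b, a phosphatase of G2, by 2.23 ± 0.34 (adjusted p = 0.000206). Of 21 S phase entry genes, 19 were higher and none lower, with a list median of 1.85. Among them Rrm1, a subunit of ribonucleotide reductase, rose by 1.81 ± 0.19 (adjusted p = 1.5e-05), Mcm2 and Mcm7 of the replicative helicase by 1.98 ± 0.22 (adjusted p = 2.1e-05) and 1.77 ± 0.22 (adjusted p = 4.1e-05), and Gins2 by 1.37 ± 0.21 (adjusted p = 0.00017). Cdc7 (0.33 ± 0.31, adjusted p = 0.398) and Rrm2 (1.52 ± 0.61, adjusted p = 0.0524) were not called.

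All 4 of the G2 and M list were higher: Ccnb1 (4.56 ± 0.76, adjusted p = 0.000355), Ccnb2 (3.84 ± 0.80, adjusted p = 0.00163), Ccnf (2.17 ± 0.49, adjusted p = 0.00265) and Cdk1 (1.54 ± 0.41, adjusted p = 0.00737). Of 22 other cyclins and kinases tested, 4 were higher and 4 lower, a share under that of all genes in either direction, with a median of 0.21. Ccng1, a direct p53 target, fell, with clones between 164 and 758 CPM in WT and between 45.3 and 77.6 CPM in cKO (−2.49 ± 0.28, adjusted p = 2.8e-05). The transcription cyclins Ccnt2 and Ccnk went opposite ways (−0.66 ± 0.09, adjusted p = 7.2e-05, and 0.72 ± 0.11, adjusted p = 0.000208), and Cdk10 was lower (−0.71 ± 0.14, adjusted p = 0.00128). Between P4M and P28 a single gene was called in each of 3 lists, all higher in P4M: Cdkn1a, Rb1 and Cdk20 (19.7 to 21.6 against 7.06 to 10.5 CPM). None was called in the other 3 lists, while edgeR called 1254 of all genes in that contrast.

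**Figure D4:**
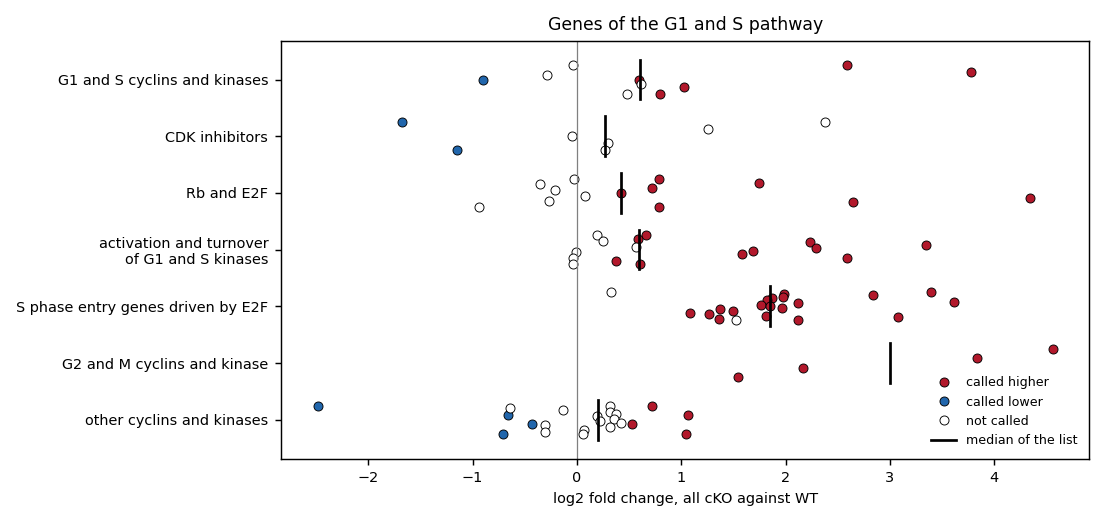
Log2 fold change in all cKO against WT (x axis) of the tested genes of 7 lists (y axis), called higher in red, called lower in blue and not called in white, with the list median as a black bar. The median was 0.60 for the G1 and S cyclins and kinases, 1.85 for the S phase entry genes and 3.0 for the G2 and M list.

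Some of the members varied together within groups and others did not. After the group mean was taken from each clone's log2 CPM, Pearson's r over the 14 clones was 0.85 for Ccne2 with Cdk2, 0.78 for Ccne1 with Ccne2 and 0.76 for Ccne1 with Cdk2. P28 replicates 4 and 5 were the highest of the 14 clones for each of these genes, and their weight in r was not tested. Cdk4 with Cdk6 was the lowest member pair at −0.16. Ccna2 ran with the cycling markers, at 0.91 with Mki67 and 0.92 with Top2a, whereas Ccne2 was at 0.22 with Mki67, Cdk6 at −0.03 and Ccnd2 at −0.12. Among the 9660 genes whose log2 CPM averaged 3 or more, the pattern most like that of Ccna2 was that of Cenpa, a centromere histone (0.96), followed by Dlgap5, a spindle protein (0.96). The closest to Ccne2 was Mcm4 (0.90), to Cdk2 Hdac2 (0.91), to Cdc25a Psmd3 (0.94) and to Ccne1 Arl6 (0.94). For Ccnd1, Ccnd2 and Ccnd3 they were Ube2f (0.86), Tbcel (0.93) and Smpdl3a (0.89), and for Cdk4 and Cdk6 Map4k4 (0.90) and Kctd3 (0.91). Clones of a group differed in depth and in cycling markers, so these values only describe likeness.

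The genes around each member were used to see whether a whole stretch of chromosome moved. In mm10 the members lie on 8 chromosomes, with Ccnd1 (chr7:144929931-144939925) and Ccne1 (chr7:38097984-38107534) sharing chromosome 7 and Cdk4 (chr10:127063534-127067920) and Cdk2 (chr10:128697939-128705031) sharing chromosome 10. Within 1 Mb of Cdk6 (chr5:3341485-3531008), 10 genes had a median log2 fold change of −0.63 in all cKO against WT, while Cdk6 was at 1.03. The neighbours of Cdk4 (28 genes) were at −0.52 and of Cdk2 (41 genes) at −0.44. The windows of Cdk4 and Cdk2 overlap, so these medians are not separate observations. The 7 neighbours of Ccnd1 were at −0.88 beside −0.04 for Ccnd1 itself. Around Ccne2 (chr4:11191351-11204779) the median of 15 genes was 0.44 and around Ccna2 (chr3:36564865-36572150) that of 14 genes was 0.24, and none of these neighbours reached the member's own value. Around Cdc25a (chr9:109875579-109893895) the median of 26 genes was 0.27, with 7 of them at or above Cdc25a. Ccnd2 (chr6:127125162-127152193) was at −0.90 beside −0.05 for its 9 neighbours, 8 of which were higher than Ccnd2. Ccnd3 (chr17:47505051-47599691) and its 30 neighbours were at −0.29 and −0.10. Ccne1, which was not called, was at 0.62 beside −0.60 for its 4 neighbours.

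**Figure D5:**
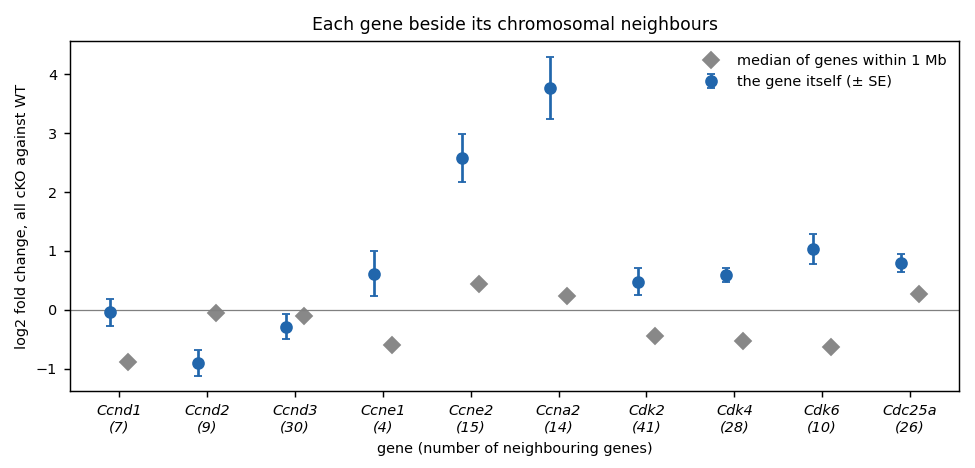
Log2 fold change in all cKO against WT of each gene (blue points, ± SE) beside the median of the tested genes within 1 Mb (grey diamonds), with the number of neighbours under each name. Cdk4, Cdk6 and Cdk2 lay above 0 and their neighbours' medians at −0.52, −0.63 and −0.44. The windows of Cdk4 and Cdk2 overlap.

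Each member but Ccne1 overlaps another annotated gene, and on 8 of them the partner is on the opposite strand. The library kit does not mark strand, and the files do not settle whether reads in both genes were dropped or divided, so counts in the shared stretches are uncertain. The longest overlap with a protein-coding gene was the 5622 bases that Ccne2 shares with Ints8, which moved by 0.48 ± 0.16 (adjusted p = 0.0243) beside 2.59 for Ccne2. Mean counts over all clones were 1611 for Ints8 and 457 for Ccne2, whereas Ccna2 and Cdk4 had higher mean counts than their partners Exosc9 and Tspan31. How far reads of Ints8 entered the Ccne2 counts was not tested. Exosc9, which shares 863 bases with Ccna2, was at −0.10 ± 0.16 (adjusted p = 0.635), and Tspan31, which shares 641 bases with Cdk4, was lower by −0.84 ± 0.12 (adjusted p = 9.4e-05).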

How the data were processed

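Bulk RNA-seq was made from 14 cultured single clones with the SMART-Seq v4 kit. Per the methods, the authors aligned reads to mm10 with TopHat and Bowtie2 and counted unambiguous reads per gene with HTSeq. The deposited raw count table used here, which is not normalized, holds for all 30503 of its genes the same whole numbers as a deposited table of expected counts, and 474 values at 0 counts have a TPM above 0. The values were therefore taken to be expected counts, deposited as whole numbers, and whether reads shared by genes were left out or divided between them is not settled. The authors also deposited rlog values from DESeq2, which are log2 values shrunken for low counts, and TPM values scaled to the same total in every clone, whose program is not given in the sources used here. The separate expected count table served only for that check, deposited FPKM and depth-normalized counts were not used, and no columns of comparisons were used. The members and all gene lists were chosen with earlier results of these data known. Named genes were the 10 members, Trp53, Mki67, Top2a, cell type markers and up to 4 genes of each list with the lowest adjusted p in all cKO against WT or in P4M against P28. E2f1, Cdc7, Rrm2, Wee1, Pkmyt1 and the genes that overlap members were named after their values were seen.

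Groups came from the source labels, and clones are numbered in accession order. Whole-number counts of all 14 clones were fitted together in edgeR 4.0.16 (R 4.3.3) with TMM scaling, the filterByExpr filter and the quasi-likelihood F-test. P-values were adjusted by Benjamini and Hochberg over all 17358 genes, with calls at 0.05. The 4 contrasts were P28 and P4M against WT, the mean of both cKO groups against WT, and P4M against P28. SE is the log2 fold change over the root of F. Total counts of 25688946 to 52857424 per clone limit genes of few counts most, and 3 counts correspond to 0.0564 to 0.121 CPM. CPM in the text uses TMM-scaled totals. Ratios within a clone used log2 (TPM + 0.1) and exact two-sided permutation tests over clones, with p as the smaller one-sided share doubled, adjusted over 8 tests. Neighbours whose log2 CPM averaged 1 or more were taken from GENCODE M21, and promoter windows from RefSeq. Scripts were tested on simulated data. Alternatives were DESeq2 1.42.0, RLE or no scaling, other filters, only the groups compared, a minimum log2 fold of 1, other pseudocounts, rlog values, a wider neighbour window and each clone left out. No batch term could be fitted.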

Additional observations from a re-analysis of the deposited data

Results flagged for a closer look

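In 42 group values tested for a clone far from the others, 1 was found, and chance alone gives about 1 in 20. Cdk4 in Fgfr3-p53 cKO (P28) replicate 2 read 445 CPM, whereas the other 4 P28 clones read 366 to 387 CPM. The rise of Cdk4 in P28 held in every fit that left out 1 clone, with a log2 fold change from 0.54 to 0.66. The cause was not tested.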

How the results depend on the processing

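The number of the 10 genes called against WT was 6 in P28, P4M and all cKO. It ran from 5 to 8 in P28 under the other tools, scalings, filters and sample sets and from 5 to 7 with 1 clone left out, and was 6 under those settings in P4M and all cKO (5 to 7 in P4M with 1 clone left out). Asking for a log2 fold change of at least 1 as well left 3 in each contrast: Ccne2, Ccna2 and Cdk6 in P28 and all cKO, and Ccne2, Ccna2 and Ccnd2 in P4M. Between P4M and P28 the count was 0 under every setting. Over all genes that contrast gave 1254 calls in edgeR, 2607 in DESeq2, 3051 with only those groups in the fit and 480 to 2132 with 1 clone left out (2132 without WT replicate 1, and 480 to 809 without P28 replicate 1, 3 or 4 or any one P4M clone), and the cause was not tested. With the minimum fold all genes called fell to 4040 in P28, 5149 in P4M and 4723 in all cKO. The fit with only the groups compared is the same as that of all clones for all cKO against WT.

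Values that changed sign were none of them called. With counts scaled to the total, Ccnd1 was at 0.031 in all cKO, Ccnd3 at 0.083 in P28 and Ccne2 at −0.050 in P4M against P28. Without a filter Ccnd1 was at 0.024 in all cKO, Ccnd3 at 0.021 in P28 and Cdk4 at 0.0032 in P4M against P28. With at least 10 counts in every clone Ccnd3 was at 0.0065 in P28 and Ccne2 at −0.0030 in P4M against P28. With 1 clone left out, the log2 fold change ran from −0.21 to 0.069 for Ccnd1 in all cKO, from −0.088 to 0.21 for Ccnd1 in P4M, from −0.19 to 0.13 for Ccnd3 in P28 and from −0.044 to 0.34 for Ccne1 in P4M. In P4M against P28 it ran from −0.017 to 0.43 for Ccna2, −0.19 to 0.43 for Ccne2, −0.13 to 0.039 for Cdk4 and −0.39 to 0.051 for Cdk6.

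Of the ratios, Ccne2 to Ccne1 in cKO against WT passed under every setting (1.64 to 2.0 with 1 clone left out). Ccnd2 to Ccnd1 in cKO against WT ranged from −0.95 to −0.61 with 1 clone left out, and passed without WT replicate 4 (adjusted p = 0.0336) or P28 replicate 1 (adjusted p = 0.0435) in the exact permutation test. Cdk6 to Cdk4 in P4M against P28 ranged from −0.30 to 0.20. Counting permutations by absolute difference, chosen after the data were seen, gave an adjusted p of 0.0480 both for Ccnd2 to Ccnd1 in cKO against WT (−0.77) and for Ccne2 to Ccne1 in P4M against P28 (1.02), so these calls turn on how the exact test is counted. With 1 clone left out the P4M against P28 tests have fewer possible groupings, which raises the smallest p they can give. In a window of 3 Mb the neighbours' medians in all cKO against WT were −0.56 for Cdk6, −0.52 for Cdk4 and Cdk2, and −0.69 for Ccnd1. They were −0.49 for Ccne1, −0.02 for Ccnd3, 0.44 for Ccne2 and 0.06 for Ccna2, while that of Cdc25a turned from 0.27 to −0.09. Around Ccnd2 the median moved from −0.05 to −0.28. In P28 against WT it was −0.45 at 3 Mb, beside −0.69 for Ccnd2, so that contrast depends on the window.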

Other observations

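The spread between clones was smaller in P4M than in P28 for 8 of the 10 genes, against 53.4% of the 17313 tested genes with counts in both groups. The coefficient of variation of CPM was 59.4% in P28 and 16.9% in P4M for Ccne1, 66.5% and 14.05% for Ccne2, and 33.2% and 12.6% for Cdk2. P28 replicates 4 and 5 were the highest of all clones for each of these genes. Cdk4 (8.01% and 14.3%) and Ccna2 (40.2% and 48.2%) went the other way. The median over the 10 genes was 33.0% in P28 and 17.5% in P4M, beside 23.1% and 22.1% over all genes. With 5 and 4 clones these values carry no test.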
